A study of Mus musculus with 32 samples.

Results

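The genes described here are 47 interferon-stimulated genes, chosen by symbol from a list of genes that cells switch on in answer to interferon. All 47 were present among the 21880 genes of the mouse liver RNA-seq table, 1 row each, and in 33 of them the mean normalized count reached 1. The livers came from 4 genotypes at 2 and 6 months of age (2M and 6M), and each genotype was sequenced in 4 libraries at each age, which makes 32. L-*Dnm1l*–KO mice lack *Dnm1l*, which encodes the mitochondrial fission protein DRP1. DKO mice lack *Mfn1* and *Mfn2*, which encode the mitofusins that fuse mitochondrial outer membranes, and TKO mice lack *Dnm1l*, *Mfn1* and *Mfn2* together. The floxed alleles, on a mixed strain background, were deleted by Cre under the albumin promoter, which acts chiefly in hepatocytes. The titles of the WT libraries name them as the WT of the *Dnm1l* line, and the labels give neither the sex of a library nor whether libraries came from separate mice.

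The level of each gene is the authors' mean over libraries of counts divided by size factors. It pools all genotypes and both ages, so it makes no comparison of a knockout with WT. It gives the reads counted on the row of a gene. Whether those reads come from the gene's own strand was not tested, so a level here, low or high, is that of the row and not shown to be that of the transcript. No spread between libraries was available for it, so the order of neighbouring genes below could not be tested. To compare genes, the level was divided by the length of the gene's exons in kilobases. In bulk liver, fewer cells of a type and less RNA per cell cannot be told apart.

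Interferons are secreted when cells sense viral or misplaced nucleic acid. Type I and type III interferons act through JAK1 and TYK2 on a complex with STAT2 and IRF9 that binds the interferon-stimulated response element, whereas interferon-γ acts at the gamma-activated site. The induced proteins block viral translation, degrade or edit RNA, tag proteins with ISG15, attack the vacuoles of intracellular parasites, or feed back on the pathway itself. In liver, both hepatocytes and nonparenchymal cells carry interferon receptors.

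The tissue label was checked against cell markers. Of 12 hepatocyte markers, 11 were listed, all but *Tf*, at mean normalized counts of 100 (*Serpina1a*) to 4958 (*Alb*). The 8 macrophage markers reached 3.82, the 5 endothelial markers 4.36 and the 5 stellate cell markers 8.20. Exons of *Stab2* (4.36), *Clec4g* (2.88) and *Reln* (4.42) overlap genes on the other strand whose rows were higher, at 29.1, 122 and 48.1. The listed markers of cholangiocytes, T cells, B cells and neutrophils were all under 1, with *Cd79a* the highest at 0.863. Of the 3 plasmacytoid dendritic cell markers, *Siglech* was at 0.160, *Tcf4* at 2.33 and *Bst2*, itself one of the 47 genes, at 12.3.

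The response element is shown first, since it is the DNA feature through which type I interferons are known to act on genes of this kind. It was searched as GAAANNGAAA on both strands, and the gamma-activated site as TTCNNNGAA, which reads the same on both strands, in RefSeq promoters of GRCm38.p6 that run from 250 bases before to 50 after a start site. Of the 47 genes, 36 had a promoter entry. The 11 others were *Tor3a*, *Rtp4*, *Parp14*, *Oas2*, *Ifi27*, *Zbp1*, *Mx2*, *Dhx58*, *Iigp1*, *Parp9* and *Usp18*. A core was present in 18 of the 36 genes (50%, exact 95% binomial interval 32.9 to 67.1%), against 3.99% of all 27025 genes with a promoter entry. The gamma-activated site was present in 10 of 36 (27.8%, interval 14.2 to 45.2%), against 9.55% of all genes. These genes were listed for being interferon-stimulated, so the shares describe the list and were not tested, and a match is no evidence of binding.

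The windows below, from antiviral genes, run 5′ to 3′ on the strand of the gene, with the response element cores in capitals. They were picked for holding a core. Antiviral genes with an entry and no core, such as *Ifit2* and *Oasl1*, are left out. Cores made of TTTC in place of GAAA are the same motif on the other strand, and cores can overlap each other by 4 bases, as in *Isg15* with 3 of them in a row.
*Isg15* (chr4:156200867-156200904, - strand): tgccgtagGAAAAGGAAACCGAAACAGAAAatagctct
*Ifit1* (chr19:34640777-34640821, + strand): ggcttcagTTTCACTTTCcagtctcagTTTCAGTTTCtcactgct
*Ifit3* (chr19:34583365-34583424, + strand): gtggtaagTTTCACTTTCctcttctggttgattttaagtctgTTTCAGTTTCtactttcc
*Ifit3b* (chr19:34607761-34607820, + strand): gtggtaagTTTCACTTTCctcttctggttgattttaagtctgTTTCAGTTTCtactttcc
*Rsad2* (chr12:26456555-26456580, - strand): ggtccaacTTTCATTTTCagaaaaca
*Oas1a* (chr5:120907526-120907553, - strand): cttctcggGAAATGGAAACTGAAAatct
*Oas3* (chr5:120777717-120777742, - strand): agggaggaGAAAACGAAAgtgaaggg
The windows of *Ifit3* and *Ifit3b*, neighbours on chromosome 19, were identical over 60 bases.

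In the GTPase genes that attack pathogen vacuoles, 6 of the 7 with an entry had a core, the highest count of any role. Their windows are shown for comparison with the antiviral genes.
*Gbp2* (chr3:142620596-142620621, + strand): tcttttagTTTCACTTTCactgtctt
*Gbp3* (chr3:142559991-142560022, + strand): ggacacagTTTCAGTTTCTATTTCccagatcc
*Gbp7* (chr3:142530275-142530300, + strand): gtgtgcagTTTCAGTTTCagttctcc
*Igtp* (chr11:58199514-58199539, + strand): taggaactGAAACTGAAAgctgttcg
*Irgm1* (chr11:48871428-48871457, - strand): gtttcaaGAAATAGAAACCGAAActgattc
*Irgm2* (chr11:58214905-58214930, + strand): caggaactGAAACTGAAAgctgttcg
The core of *Igtp* and that of *Irgm2* were the same letters on the same strand. The windows of *Gbp2* and *Irgm1* lie partly or wholly in exons annotated by GENCODE.

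Besides *Bst2*, shown after these, cores before a start site were also present in the transcription factor gene *Stat2* and the chemokine gene *Cxcl10*, with first bases at -222 and -213.
*Stat2* (chr10:128270268-128270293, + strand): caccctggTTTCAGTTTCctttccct
*Cxcl10* (chr5:92349085-92349110, - strand): acgctttgGAAAGTGAAActtacctc
In *Ifih1* and *Eif2ak2* the core lay after the start site, with its first base at 33 and 19.

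*Bst2* had the highest level per kilobase of the 47 genes, and its promoter is given whole up to the start site, with the response element cores and the gamma-activated site in capitals. The gamma-activated site, with its first base at -136, runs into the first of the overlapping cores, so the capitals form 1 run.
*Bst2* (chr8:71537473-71537722, - strand): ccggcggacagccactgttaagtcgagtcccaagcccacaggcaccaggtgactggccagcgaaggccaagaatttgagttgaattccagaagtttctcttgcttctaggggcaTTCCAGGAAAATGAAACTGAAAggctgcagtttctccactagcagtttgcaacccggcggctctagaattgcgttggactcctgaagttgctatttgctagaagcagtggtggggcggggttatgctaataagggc

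**Figure D1:**
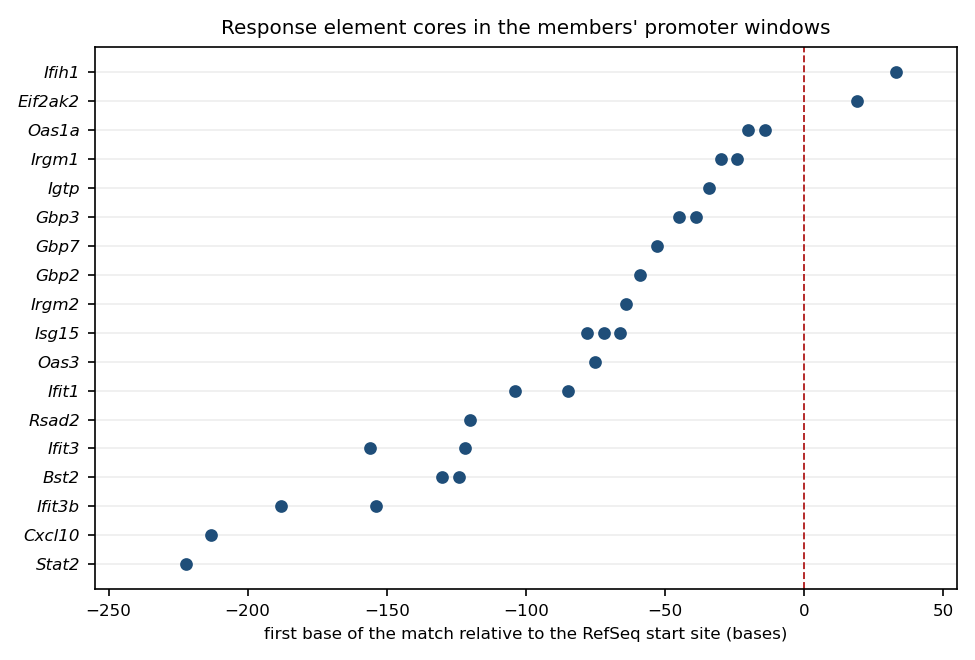
Position of each response element core in the promoter windows of the 18 genes that had one; the horizontal axis is the first base of the match in bases from the RefSeq start site, each point is 1 core and the dashed line is the start site. The core nearest the start had its first base between -222 (*Stat2*) and 33 (*Ifih1*).

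The median position of the nearest core was -65, and in 13 of the 18 genes it lay within 150 bases before the start. Of the 18 genes, 8 had at least 2 cores. Both motifs were found in 6 genes (*Bst2*, *Eif2ak2*, *Gbp7*, *Igtp*, *Irgm2* and *Oas1a*), the core alone in 12, the gamma-activated site alone in 4 (*Adar*, *Ifi35*, *Ifit2* and *Irf1*) and neither in 14. *Irf7* and *Dtx3l* were among the 14. When the core had to be followed by C, 14 of the 36 genes held it against 0.944% of all genes, and when followed by CT, 10 (27.8%) against 0.303%.

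**Figure D2:**
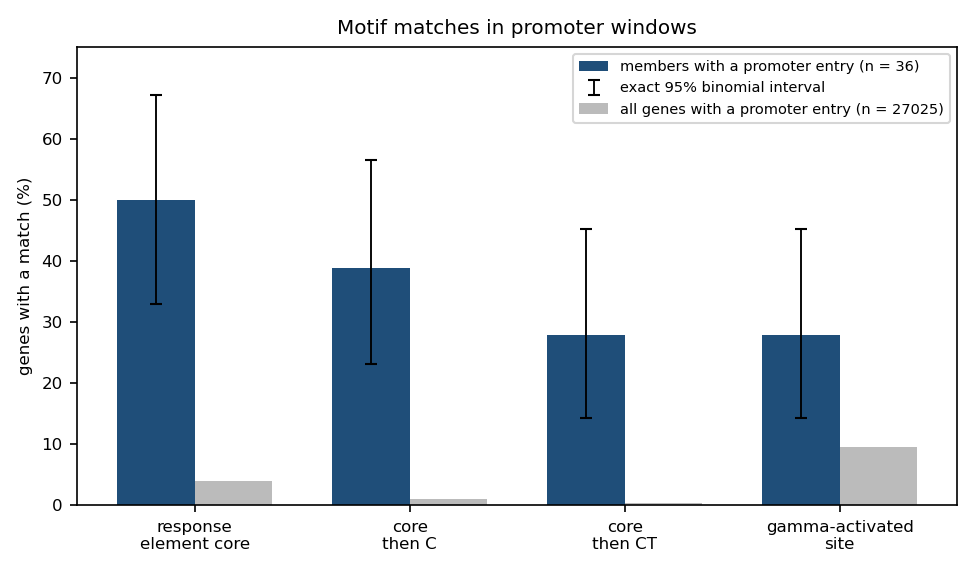
Share of genes, in percent, with each motif in the promoter window; dark bars are the 36 interferon-stimulated genes with a promoter entry, with exact 95% binomial intervals, and grey bars are all 27025 genes with an entry. The core was in 50% of the listed genes and 3.99% of all genes.

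The rows of the 47 genes held few counts. Their mean normalized counts sum to 277.6, or 0.0308% of the sum of 900450 over all genes of the table. Their median was 2.27, between 0.218 (*Ifit3b*) and 66.5 (*Dtx3l*), a 306-fold range. The median of all 21880 genes was 1.52, and that of the 14527 protein-coding genes 2.28. A mean of at least 1 was reached by 70.2% of the listed genes, 56.8% of all genes and 65.9% of coding genes. Per kilobase of exon, the median was 0.593 for the 47 genes and 0.507 for coding genes, and 25 of the 47 were above the coding median. The highest 3, *Dtx3l*, *Parp9* and *Iigp1*, held 45.0% of the sum.

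The 14 genes under 1 had a median of 0.427, and the 33 others a median of 3.92. *Gbp3* at 0.930 was the last gene below the limit and *Isg15* at 1.15 the first above it. A mean of 0.218, that of *Ifit3b*, would amount to 6.97 normalized counts summed over 32 libraries, and that of *Isg15* to 36.9, so values at this end rest on few reads.

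**Figure D3:**
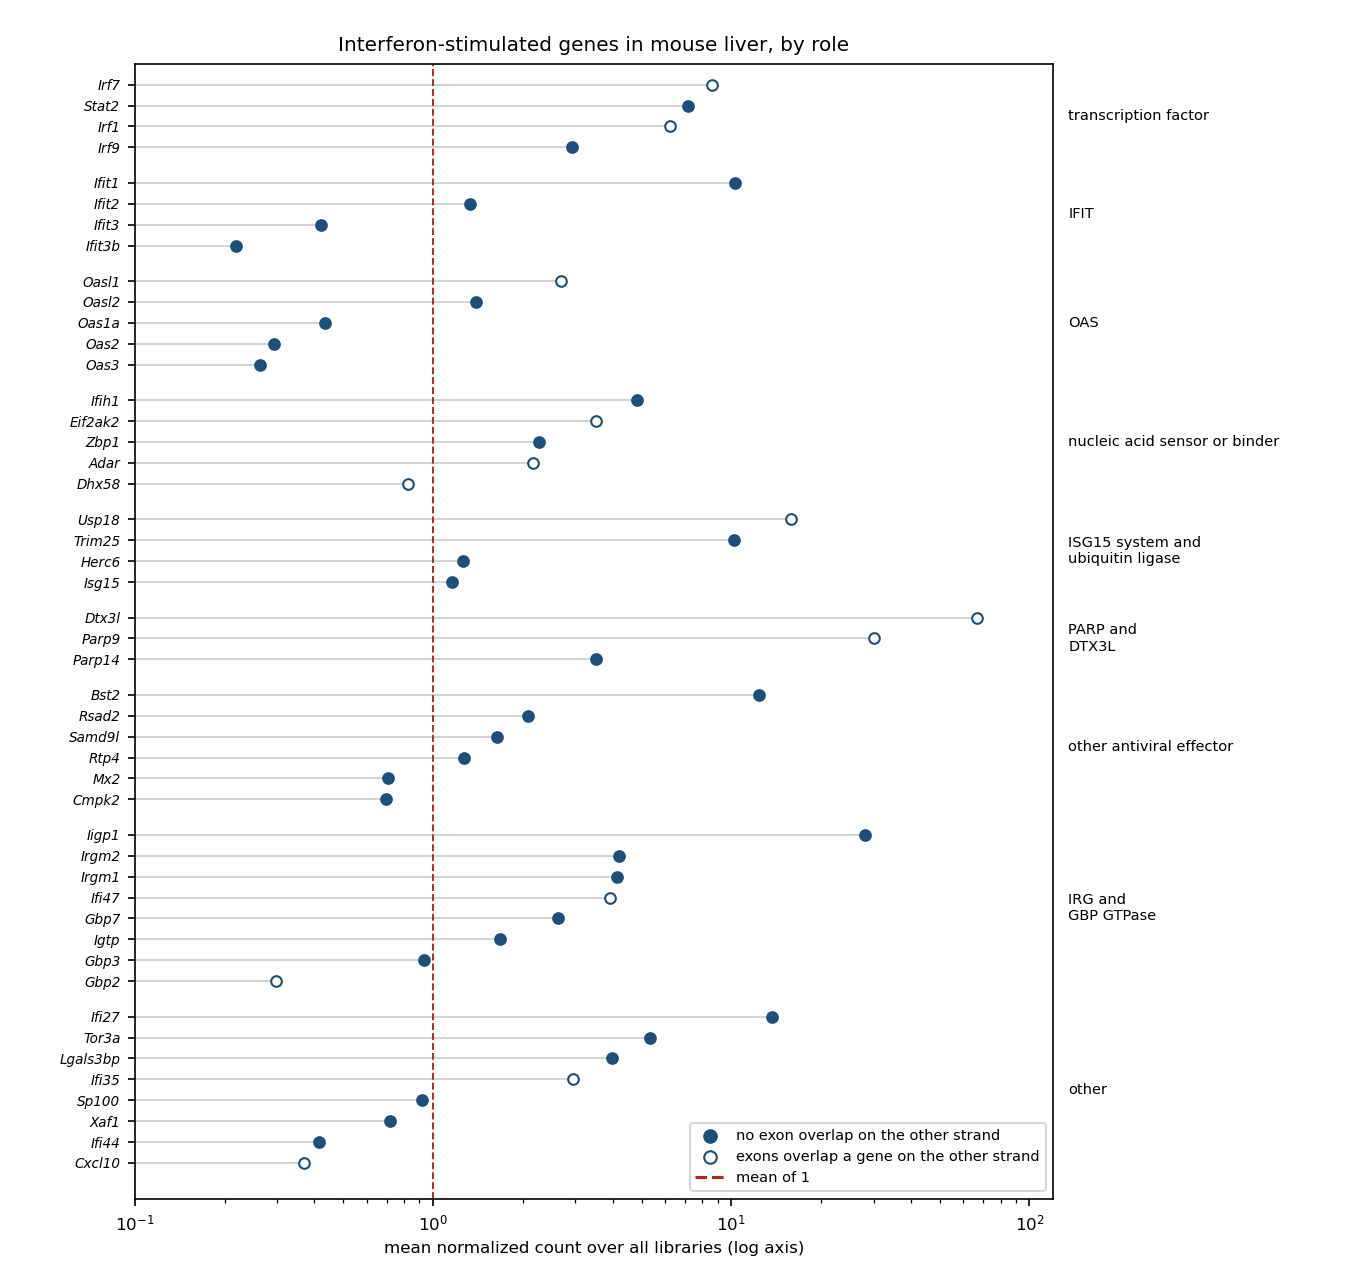
Mean normalized count of each of the 47 genes over all libraries, on a log axis, grouped by role; open circles are genes whose exons overlap those of a gene on the other strand, and the dashed line is a mean of 1. The points run from 0.218 (*Ifit3b*) to 66.5 (*Dtx3l*), and 33 of the 47 are at or above 1.

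All 4 transcription factor genes were above 1. *Irf7*, the factor that amplifies type I interferon production, was at 8.63, *Stat2* at 7.18, *Irf1*, a factor induced chiefly by interferon-γ, at 6.22, and *Irf9*, the DNA-binding subunit of the complex with STAT2, at 2.92. Per kilobase, *Irf7* was at 2.28, *Irf1* at 1.56, *Stat2* at 1.21 and *Irf9* at 0.541. All 4 were therefore above the coding median of 0.507.

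The IFIT genes, whose products bind viral RNA that lacks the host cap methylation, differed widely among themselves. *Ifit1* was at 10.3, or 3.89 per kilobase. *Ifit2* was at 1.33, *Ifit3* at 0.419 and *Ifit3b* at 0.218. Of the windows of 75 bases, the read length, in their transcripts, *Ifit3* shared 41.1% with *Ifit3b* and *Ifit3b* shared 35.7% with *Ifit3*. Reads from shared stretches cannot be given to 1 of these genes, so their values are uncertain. *Ifit1* and *Ifit3*, each with 2 cores before the start, stood at 3.89 and 0.240 per kilobase.

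The OAS genes encode enzymes that make 2′-5′ oligoadenylates, the messenger that activates RNase L, or relatives of those enzymes. *Oasl1* was at 2.69 and *Oasl2* at 1.39, and these OAS-like genes were the only members of the group above 1. *Oas1a* was at 0.435, *Oas2* at 0.293 and *Oas3* at 0.263. *Oas3* was the lowest of all 47 genes per kilobase, at 0.0371, and *Oas2* was next at 0.0659. *Oas1a* shared 47.6% of its windows with *Oas1g*, a tandem copy, so its value too is uncertain.

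Among sensors and binders of nucleic acid, *Ifih1*, which encodes the long double-stranded RNA sensor MDA5, was at 4.84. *Eif2ak2*, encoding the kinase PKR that halts translation, was at 3.52. *Zbp1*, a sensor of Z-form nucleic acid, was at 2.27, and *Adar*, which edits adenosine to inosine in double-stranded RNA, at 2.15. *Dhx58*, encoding the RIG-I relative LGP2, was at 0.823. Per kilobase the group spanned 0.252 (*Dhx58*) to 0.689 (*Eif2ak2*), the narrowest spread among the roles with at least 4 genes.

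In the ISG15 system, *Isg15* itself, the ubiquitin-like modifier, was at 1.15, whereas *Usp18*, the protease that removes ISG15 and restrains the receptor, was at 15.8. *Trim25*, a ubiquitin ligase that acts on RIG-I, was at 10.2, and *Herc6*, the mouse ISG15 ligase, at 1.26. *Isg15* is short, and per kilobase it stood at 1.53, close to *Trim25* at 1.77. *Usp18* was at 5.67 per kilobase and *Herc6* at 0.136. *Herc6* shared 11.3% of its windows with other genes, nearly all with *Gm45193*.

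The PARP genes and *Dtx3l* made up 36.1% of the sum over the 47 genes. *Dtx3l*, a ubiquitin ligase that pairs with PARP9, was at 66.5, *Parp9* at 30.2 and *Parp14*, an ADP-ribosyltransferase, at 3.53. Per kilobase these were 11.6, 6.19 and 0.379. *Dtx3l* and *Parp9* lie head to head on opposite strands of chromosome 16, and their exons overlap by 458 bases.

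Of 6 other antiviral effector genes, *Bst2*, encoding the tetherin that holds budding virions on the cell, was at 12.3, and at 13.7 per kilobase it led all 47 genes. *Bst2* is also used as a marker of plasmacytoid dendritic cells, whose other markers on the list, *Siglech* and *Tcf4*, were at 0.160 and 2.33, and the part of those cells in its level was not tested. *Rsad2*, encoding viperin, was at 2.09, and *Cmpk2*, a nucleotide kinase gene next to it on chromosome 12, at 0.696. *Samd9l* was at 1.63, *Rtp4* at 1.27 and *Mx2*, of the dynamin-like GTPase family and annotated by GENCODE as a polymorphic pseudogene, at 0.706. *Rtp4* shared 10.5% of its windows with *Gm45338*.

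The 8 genes of immunity-related and guanylate-binding GTPases held 16.5% of the sum. *Iigp1*, which acts on the vacuoles of *Toxoplasma*, was at 28.1, or 4.83 per kilobase. *Irgm2* was at 4.22, *Irgm1* at 4.14, both regulators of the other GTPases, *Ifi47* at 3.92 and *Igtp* at 1.67. *Gbp7* was at 2.61, *Gbp3* at 0.930 and *Gbp2* at 0.298. *Igtp* shared 7.80% of its windows with *Irgm2*, and *Gbp7* shared 11.3% with other genes.

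Of the 8 genes in no other role, *Ifi27*, encoding a small hydrophobic membrane protein, was at 13.7 and, per kilobase, at 9.33, the third highest. *Tor3a* was at 5.35, *Lgals3bp*, encoding a secreted glycoprotein, at 3.97 and *Ifi35* at 2.95. *Sp100*, a nuclear body protein gene, was at 0.919, *Xaf1*, encoding an XIAP-binding protein, at 0.716 and *Ifi44* at 0.413. *Cxcl10*, the chemokine that draws CXCR3-bearing T cells, was at 0.369.

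Levels of genes with and without a response element core overlapped. The 18 genes with a core had a median of 0.537 per kilobase, and the 18 with an entry and no core 0.440, and 11 and 14 of them had a mean of at least 1. Of the 10 highest genes per kilobase, 6 had an entry and 2 of those, *Bst2* and *Ifit1*, held a core. Of the 14 genes under 1, 11 had an entry and 7 of those held a core. These are medians over genes, which are not replicates, and no difference was tested.

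The library kit keeps the strand of the RNA, but the strand setting used for counting is not given in the sources used here. Most of the highest rows in the table overlap a gene on the other strand, and many of those genes are known to be abundant in liver. The row of *Ccdc152* was at 40709 and that of *Selenop*, a selenoprotein gene of hepatocytes whose exons overlap it on the other strand, at 391. In mitochondrial DNA, *mt-Nd6*, the only protein-coding gene of its strand, was at 30507 and *mt-Nd5*, on the other strand, at 6624. The rows of *mt-Co2*, *mt-Atp6* and *mt-Co3*, also mitochondrial mRNAs, were at 2.37, 0.839 and 0.775, whereas *mt-Nd4*, *mt-Co1*, *mt-Nd2*, *mt-Cytb* and *mt-Nd1*, on the same strand as these, were at 1167, 1109, 958, 836 and 630. *Serpina1c* was at 189, and the noncoding row *B430119L08Rik* that overlaps it at 29587. Rows of the 47 genes were therefore set beside rows on the other strand.

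Of the 47 genes, 13 (27.7%) have exons that overlap an annotated gene on the other strand, against 31.9% of coding genes in the table. In 11 of the 13 the partner was a listed gene outside the 47, and in 7 of the 11 the partner's row was the higher, against 63.4% of 4334 coding genes with such a partner. The partner's row was over 10-fold higher in 6 of 11, against 30.3% of the coding genes. *Adar* was at 2.15 and *Chrnb2*, a nicotinic receptor subunit gene known from neurons, at 211, a 98.1-fold difference over 1365 shared bases. *Cxcl10* was at 0.369 and *Art3* at 23.8, 64.5-fold. *Ifi35* was at 2.95 and *Gm11626* at 157, 53.3-fold. The row of each interferon-stimulated gene was the lower in these pairs.

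*Dhx58* was at 0.823 and its antisense gene *Dhx58os* at 42.2, 51.3-fold. *Irf1* was at 6.22 and *Gm17334* at 112. *Gbp2* was at 0.298 and *Mir6381* at 4.34, 14.6-fold, over only 24 shared bases. *Usp18* was at 15.8 and *Gm44148* at 62.2, 3.93-fold. The other 4 pairs ran the other way, with *Irf7* at 8.63 against *Phrf1* at 5.19, *Ifi47* at 3.92 against *Gm12188* at 0.943, *Oasl1* at 2.69 against *Gm13822* at 0.355, and *Eif2ak2* at 3.52 against *n-R5s29* at 0.186.

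**Figure D4:**
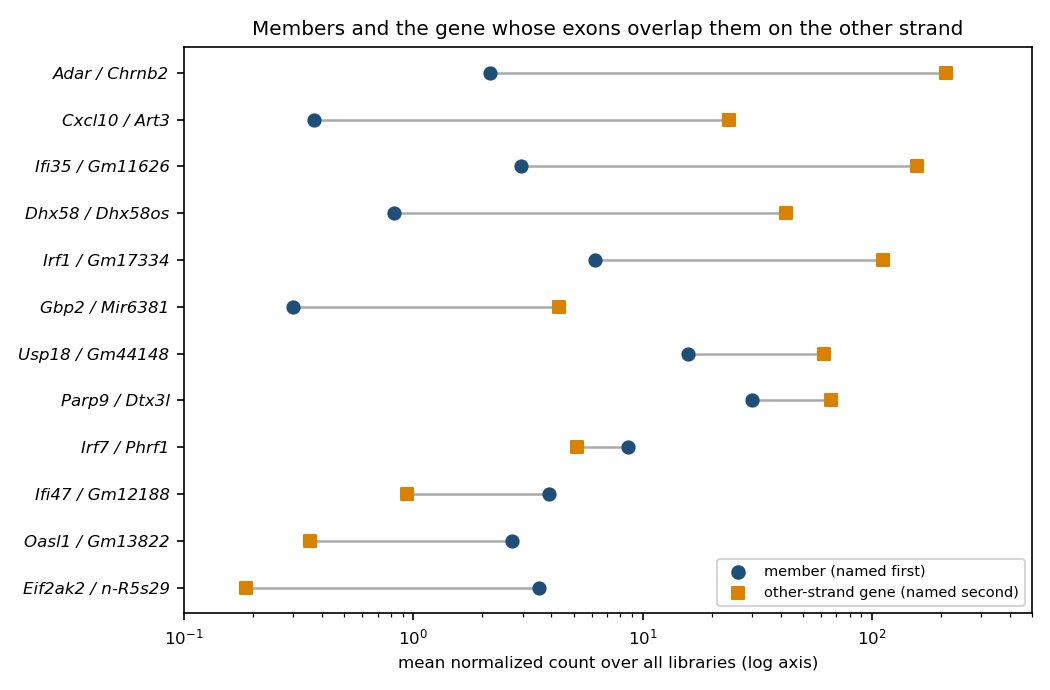
Mean normalized count, on a log axis, of each interferon-stimulated gene (circle) and of the gene whose exons overlap it on the other strand (square), ordered by the ratio of the pair. The square lies to the right in 8 of the 12 pairs drawn, *Parp9* with *Dtx3l* among them, and furthest for *Adar*, at 211 against 2.15.

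Genes with an overlapping partner had the higher median. The 13 had a median of 1.56 per kilobase and the 34 others 0.474, and among coding genes the medians were 1.22 and 0.369. *Bst2*, *Ifi27*, *Iigp1*, *Ifit1* and *Trim25* were among the highest genes without an overlapping partner on the other strand.

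Of 38 other genes of the pathway, 28 were listed and 23 of those were at or above 1, with a median of 2.37. Of 9 ligand genes only *Ifnk*, encoding interferon-κ, was listed, at 1.97. All 6 receptor genes were listed. The type I receptor genes *Ifnar1* and *Ifnar2* were at 4.01 and 4.45, the interferon-γ receptor genes *Ifngr1* and *Ifngr2* at 2.43 and 2.31, and *Ifnlr1*, the type III receptor gene, at 0.192. Per kilobase, *Ifnar2* was at 1.34 and *Ifnlr1* at 0.0460.

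Among kinases and STATs, *Stat3* was at 17.4, *Jak1* at 8.02, *Tyk2* at 4.11 and *Jak2* at 1.90. In the cytosolic DNA pathway, *Cgas*, encoding the enzyme that makes cyclic GMP-AMP, was at 1.13, *Sting1*, encoding its receptor on the endoplasmic reticulum, at 0.810 and the kinase gene *Tbk1* at 3.03. The RNA sensor gene *Ddx58* was at 4.57 and its adaptor *Mavs* at 6.70. The endosomal receptor genes *Tlr7* and *Tlr9*, used by plasmacytoid dendritic cells, were at 0.180 and 0.183.

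Several pathway genes had partners on the other strand, the highest 2 rows, *Irf5* and *Myd88*, among them. *Irf5*, a factor best known from immune cells, was at 319 and overlaps *Tnpo3*, at 17.4, by 411 bases. *Myd88*, the Toll-like receptor adaptor, was at 36.3 and overlaps *Acaa1a*, a peroxisomal thiolase gene, at 72.8. *Irf3*, the factor activated by TBK1, was at 5.28 and *Bcl2l12* on the other strand at 102. *Cgas* at 1.13 overlaps *Gm8093* at 1.97, and *Tyk2* at 4.11 overlaps *1700084C06Rik* at 34.2. The partner was the lower for *Stat3*, at 17.4 against *Stat5a* at 4.18, and for *Nlrc5*, at 2.86 against *9330175E14Rik* at 1.25. Among the negative regulators, *Socs3* was at 1.195, *Samhd1* at 2.04 and *Nlrc5* at 2.86.

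The 47 genes lie on 16 chromosomes, with 10 on chromosome 11, 6 on chromosome 5 and 5 each on chromosomes 3 and 16. The 4 IFIT genes are on chromosome 19, the 5 OAS genes on chromosome 5 and the 3 GBP genes on chromosome 3. Per kilobase, levels within these gene families were unequal, with *Ifit1* at 3.89 and *Ifit3b* at 0.109 on chromosome 19. On chromosome 5, *Oasl1* was at 1.03 and *Oas3*, which lies at a separate site, at 0.0371. On chromosome 3, *Gbp7* at 0.466 stood above *Gbp2* at 0.118.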

How the data were processed

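Liver RNA was sequenced by the authors from poly(A)-selected, strand-specific libraries as single-end reads of 75 bases. Per the submitters' processing notes, reads were mapped with HISAT2 2.1.0.13 to GRCm38, counted with HTSeq and analysed with DESeq2. As signal values the authors deposited the mean normalized counts of DESeq2, which are identical under the table's 6 comparisons with WT and listed for 21880 genes. The other 30 value columns hold the authors' log2 fold changes, standard errors, Wald statistics, p-values and adjusted p-values. They are the study's own comparisons and were not used. Values per library were not analysed here, so depth per library is unknown and no genotype was compared. Where count data per library were planned for, edgeR was not run.

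Lengths, positions and strand overlaps came from GENCODE M21 (GRCm38), which held 21833 of the gene identifiers, and promoters from RefSeq (GRCm38.p6). A level per kilobase is the mean divided by the union of exons. Promoter shares are of genes, with exact (Clopper-Pearson) 95% intervals that cover sampling of genes only. Shared windows are stretches of 75 bases found in another gene's transcript. Python 3.11.15, numpy 2.4.6, pandas 2.3.3 and scipy 1.17.1 were used, and the overlap and motif searches were tested on simulated data. The genes and lists were chosen with earlier results of these data known, and all 47 genes are named by rule. Pathway and marker genes named singly, other than those lists' extremes, were chosen after their values were seen. One gene of the pathway list is not reported here.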

Additional observations from a re-analysis of the deposited data

How the results depend on the processing

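A minimum of 0.5 left 39 genes and a minimum of 10 left 8, against 33 at a minimum of 1. The median of the 47 genes, 2.27, was 3.92 over the genes at or above 1 and 1.65 without those that overlap an exon on the other strand. The median per kilobase, 0.593, was 0.682 by the longest transcript and 1.69 by coding length. The share with an overlapping gene on the other strand, 27.7%, was 12.8% for coding partners only and 36.2% by gene spans. The share with a response element core, 50%, was 27.8% when the core was followed by CT (14 of 36 genes held it followed by C), 44.4% before the start site only and, chosen after seeing the data, 41.9% of promoter sequences in place of genes. Of all genes with a promoter entry, 3.99% held a core, and 3.88% of coding genes in the table did, a comparison also added after seeing the data. Per kilobase, also added later, the row on the other strand was the higher in 9 of 11 genes, against 7 by mean count. The share per kilobase over all coding genes with such a partner was 67.9%. No paired analysis was possible because the values are 1 mean per gene over all libraries, and the alternatives planned for a comparison of genotypes (DESeq2, no filter on low counts, a replicate block and leaving out each replicate) were not run for the same reason. The few counts behind the 14 genes under 1 limit any order among them.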
